A study of Homo sapiens with 6 samples.

Results

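DNA methylation is placed, read and removed by a small set of enzymes and binding proteins, and 10 of their genes were followed here: the methyltransferases DNMT1, DNMT3A and DNMT3B, the reader UHRF1 and its paralog UHRF2, the chromatin remodeler HELLS, the dioxygenases TET1, TET2 and TET3, and the DNA glycosylase MBD4. They were taken by gene name from the 67130 genes listed in the expression table, and each name matched 1 gene. The cells were hTERT-RPE1, a human retinal pigment epithelial line immortalized with telomerase, carrying a lentiviral Tet-On shRNA against OFD1. OFD1 encodes a protein of centrosomes and centriolar satellites. RNA-seq was done on 3 control samples without doxycycline and 3 OFD1-depleted samples kept in 200 ng/mL doxycycline for 72 h, and all 6 samples carried the hairpin construct. No group received doxycycline without a hairpin to OFD1, so effects of the drug, of the hairpin and of OFD1 loss cannot be told apart. The cells were selected after lentiviral infection and are not stated to be a clone. The labels name the tissue as retina while the study describes a cultured line, and they do not say that the 3 samples of a group were separate cultures. The study calls the samples biological replicates without saying how they were separated, and p-values measure the spread between them.

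In dividing cells, UHRF1 recognizes newly replicated DNA that is methylated on the parental strand and brings DNMT1 there to copy the mark. DNMT3A and DNMT3B set methylation at sites without it, HELLS opens nucleosomal DNA to the methylation machinery together with CDCA7, and TET enzymes oxidize methylated cytosine as a step toward its removal. MBD4 binds methylated CpG and excises the thymine that arises when methylated cytosine is deaminated.

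Values are FPKM, fragment counts scaled by transcript length and library size, which can be compared between genes. Changes were fitted with limma on log2(FPKM + 0.1) for the 12025 genes that averaged 1 FPKM or more over the 6 samples, and a gene was called when its Benjamini-Hochberg adjusted p over all those genes was under 0.05. Adding 0.1 understates the fold changes of genes with low values. OFD1 (X:13734745-13769357 on GRCh38) was at 3.34, 3.62 and 3.44 FPKM in the control samples and at 0.795, 0.763 and 1.43 FPKM in the OFD1-depleted samples, a log2 fold change of −1.75 (SE 0.255, limma adjusted p = 0.00085). Among retinal pigment epithelium markers, 9 of 10 were above 0 but only MITF and OTX2 had a mean of at least 1 FPKM, TTR was at 0, and the summed level was 8.08 to 8.96 FPKM in the control and 9.97 to 13.1 FPKM in the OFD1-depleted samples. The highest sum was that of OFD1-depleted replicate 2, where BEST1 was at 4.33 FPKM, against 0.00696 to 0.0475 FPKM in the other 5 samples. Most of the sum was MITF, at 5.82, 5.30 and 5.06 FPKM in the control and 7.75, 5.84 and 7.21 FPKM in the OFD1-depleted samples. SERPINF1 was lower on average, at 1.11, 0.640 and 0.724 FPKM against 0.0908, 0.650 and 0.0900 FPKM. So were RLBP1, LRAT and TYR, at trace levels, so the markers did not all move with their sum. The photoreceptor markers CRX, PDE6B and RCVRN were at 0 in every sample, and none of the 7 on that list reached a mean of 1 FPKM. Of 5 epithelial markers, KRT7, KRT8 and KRT18 had a mean of at least 1 FPKM and EPCAM was at 0, with sums of 274.5 to 292.7 FPKM in the control and 309.9 to 443.2 FPKM in the OFD1-depleted samples. The sum of the 5 mesenchymal and immune markers, nearly all of it VIM, was 4216 to 4491 FPKM and 3625 to 3916 FPKM, whereas COL1A1 was at 7.66 to 9.96 FPKM in the control and 21.9 to 28.4 FPKM in the OFD1-depleted samples, and PTPRC and PECAM1 were under 1 FPKM in every sample. PDGFRB was at 15.2 to 22.7 FPKM in the control and 12.1 to 16.6 FPKM in the OFD1-depleted samples, with the groups overlapping. OFD1-depleted replicate 2 stood apart by transcript length. Against the mean of its group, itself included, its values were lower for transcripts of at least 5000 bases (median log2 deviation −0.41). They were higher for transcripts under 1500 bases (0.34). Of the 10 DNA methylation genes, 9 had their lowest OFD1-depleted value in that sample, the exception being UHRF1. The 9 include UHRF2 (3576 bases), HELLS (3128), MBD4 (2394) and DNMT3B (4336), whose transcripts are shorter than 5000 bases. The share of all tested genes that were lowest in that sample was not counted, so it is not known whether 9 of 10 is unusual. The part of transcript length in single results was not tested beyond refits without this sample and with a length trend taken out, whose values are given where they matter.

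The genes that maintain methylation at replication were lower in the OFD1-depleted samples, whereas none of the 8 tested genes was called higher. UHRF1, HELLS, DNMT1 and UHRF2 passed the test, 4 of the 8 genes with enough signal to be tested, against 11.9% of all tested genes called lower and 5.07% called higher. The remaining 4 tested genes, MBD4, DNMT3A, TET2 and TET3, did not pass, and DNMT3B and TET1 lay under the filter. In 5 of the 8 tested genes every OFD1-depleted sample was below every control sample, against 22.3% of all tested genes. With 3 samples against 3, the exact permutation test of a single gene cannot give a p below 0.1.

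**Figure D1:**
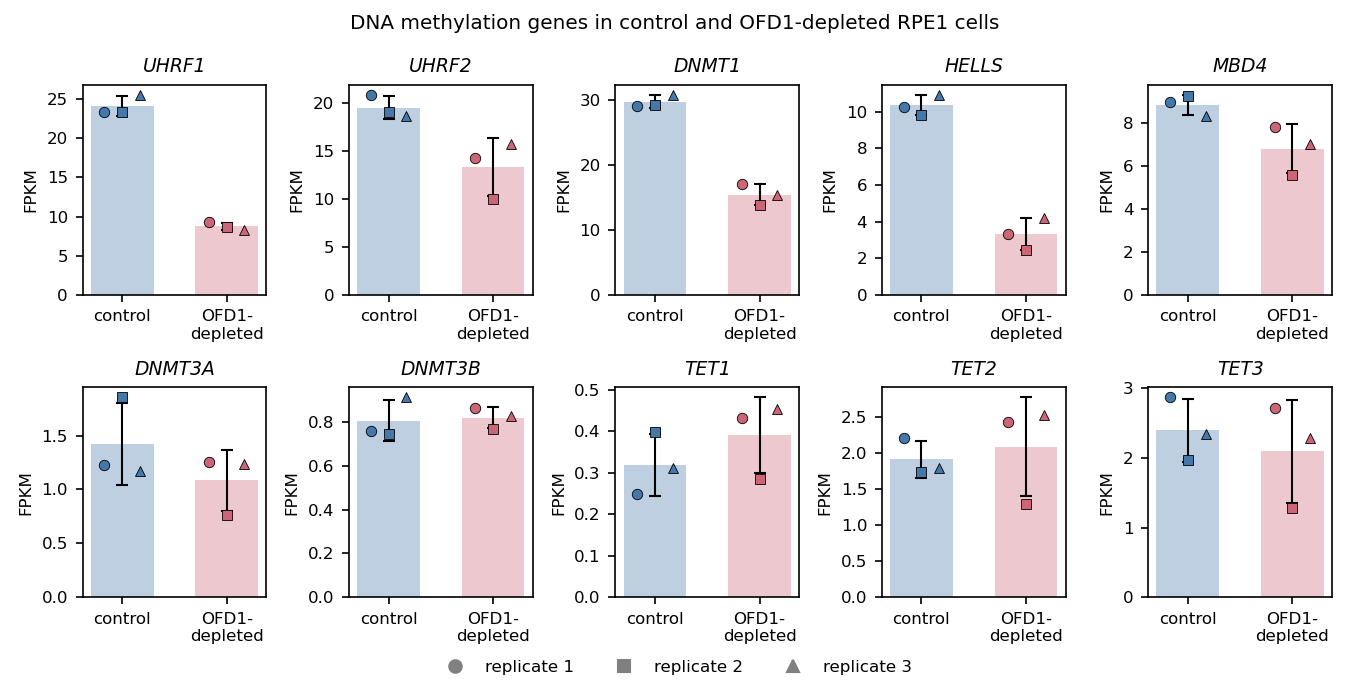
FPKM of the 10 DNA methylation genes in each of the 3 control and 3 OFD1-depleted samples, 1 panel per gene with its own axis from 0. Points are samples, bars are means and error lines are the SD. The groups are apart for UHRF1, HELLS, DNMT1, UHRF2 and MBD4 and overlap for the other genes.

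UHRF1 was at 23.4, 23.4 and 25.6 FPKM in the control samples and at 9.28, 8.62 and 8.30 FPKM in the OFD1-depleted samples. The groups lay far apart, with little spread inside either of them. UHRF1 (ENSG00000276043, 19:4903080-4962154, plus strand) kept 36.2% of its control mean, from 24.1 ± 1.29 to 8.73 ± 0.50 FPKM (SD, n = 3). Its log2 fold change was −1.46 (SE 0.125, 95% interval −1.73 to −1.18, limma adjusted p = 3.34e-05), and the exact two-sided permutation p was 0.1, the smallest possible. In bulk RNA, fewer cells in the phase that uses a gene and less of its RNA per cell cannot be told apart.

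HELLS, an ATPase of the SNF2 family, was at 10.3, 9.84 and 10.9 FPKM in the control samples and at 3.34, 2.46 and 4.21 FPKM in the OFD1-depleted samples. The highest OFD1-depleted value lay far below the lowest control value, and the OFD1-depleted samples differed more among themselves than the control samples. HELLS (ENSG00000119969, 10:94501434-94613905, plus strand) had the most negative log2 fold change of the 8 tested genes, −1.63 (SE 0.188, 95% interval −2.05 to −1.22, limma adjusted p = 0.000186, exact two-sided permutation p = 0.1), and kept 32.3% of its control mean of 10.4 ± 0.553 FPKM. The intervals of HELLS and UHRF1 overlap.

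DNMT1, the maintenance methyltransferase, had the highest level of the set. It was at 29.2, 29.2 and 30.9 FPKM in the control samples and at 17.1, 13.8 and 15.4 FPKM in the OFD1-depleted samples. The groups did not overlap, and the highest OFD1-depleted value lay well below the lowest control value. DNMT1 (ENSG00000130816, 19:10133342-10231286, minus strand) kept 51.9% of its control mean, from 29.8 ± 0.966 to 15.4 ± 1.67 FPKM (SD, n = 3). Its log2 fold change was −0.95 (SE 0.129, 95% interval −1.23 to −0.66, limma adjusted p = 0.000531, exact two-sided permutation p = 0.1). UHRF1, HELLS and DNMT1 stayed past the threshold in 18 of 18 alternative analyses, with adjusted p-values of at most 0.00209, 0.0120 and 0.00795.

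Promoter sequence is shown for these 3 genes because only they, of the 10, held a word of the kind searched for. The RefSeq windows from 250 bases before to 50 after each transcript start on GRCh38.p14, available for all 10 genes, were searched on both strands for the 8-base words TTTCCCGC, TTTCGCGC, TTTGCCGC and TTTGGCGC, forms of the consensus bound by E2F factors, which drive genes of S phase. A word was found for UHRF1 (2 of 3 windows), HELLS (1 window, 2 words) and DNMT1 (1 window), and not in the windows of the other 7 genes. The matches are shown here 5′ to 3′ on the strand of the gene, with 20 bases on each side and the word in capitals. A word on the opposite strand appears as its reverse complement. Distances run from the first base in capitals to the transcript start, so the DNMT1 word spans that start.
UHRF1, chr19:4909467-4909514, plus strand, word 14 bases before the start: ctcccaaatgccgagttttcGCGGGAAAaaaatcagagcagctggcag
UHRF1, chr19:4909964-4910011, plus strand, word 160 bases before the start of another transcript: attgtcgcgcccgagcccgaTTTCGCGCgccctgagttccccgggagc
HELLS, chr10:94545760-94545807, plus strand, word 8 bases before the start: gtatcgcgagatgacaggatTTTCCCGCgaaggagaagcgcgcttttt
HELLS, chr10:94545692-94545739, plus strand, word 76 bases before the start: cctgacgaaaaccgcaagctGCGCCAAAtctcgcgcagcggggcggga
DNMT1, chr19:10194928-10194975, minus strand, word 2 bases before the start: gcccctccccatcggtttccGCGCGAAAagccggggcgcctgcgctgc
Across all 35116 windows, 3.31% held 1 of the words or more. By gene the share was 7.15% of the 9029 tested genes with a window, 11.1% of the 1148 called lower and 3.61% of the 416 called higher. A match is a string of letters and says nothing of whether a factor was bound there in these cells.

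UHRF2, which shares the domains of UHRF1 but does not replace it in maintenance, was at 20.8, 18.985 and 18.6 FPKM in the control samples and at 14.3, 9.93 and 15.7 FPKM in the OFD1-depleted samples. The groups did not overlap, but OFD1-depleted replicate 2 was well below the other 2. UHRF2 (ENSG00000147854, 9:6413151-6507054, plus strand) kept 68.2% of its control mean, with a log2 fold change of −0.57 (SE 0.170, 95% interval −0.95 to −0.20, limma adjusted p = 0.0403, exact two-sided permutation p = 0.1). Without OFD1-depleted replicate 2 the change was −0.38 (adjusted p = 0.0350), and the call held in 8 of 18 alternative analyses, with adjusted p-values from 0.00951 to 0.166. It was lost without control replicate 1 (0.141), 2 (0.0939) or 3 (0.0961) and without OFD1-depleted replicate 1 (0.0581).

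**Figure D2:**
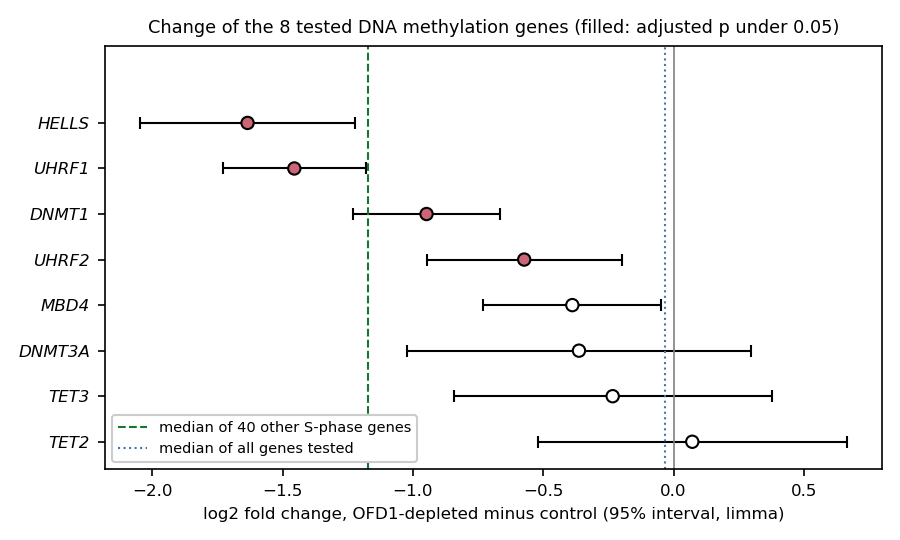
Log2 fold change of the 8 tested genes, OFD1-depleted minus control, with 95% intervals from limma; filled points passed the adjusted threshold of 0.05. The dashed line is the median of 40 other S-phase genes, −1.17, and the dotted line the median of all tested genes, −0.03; HELLS and UHRF1 lie left of both, and the interval of DNMT1 crosses the dashed line.

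The de novo methyltransferases were expressed far below DNMT1. DNMT3A (ENSG00000119772, 2:25227855-25342590, minus strand) was at 1.23, 1.85 and 1.17 FPKM in the control samples and at 1.25, 0.759 and 1.24 FPKM in the OFD1-depleted samples. The groups overlapped, and the highest and lowest samples were control replicate 2 and OFD1-depleted replicate 2. Its log2 fold change of −0.36 had a 95% interval of −1.02 to 0.30 (limma adjusted p = 0.457, exact two-sided permutation p = 0.6), so neither no change nor a loss as large as that of DNMT1 was outside it. DNMT3B (ENSG00000088305, 20:32762385-32809356, plus strand), at 0.757, 0.741 and 0.911 FPKM in the control and 0.860, 0.765 and 0.828 FPKM in the OFD1-depleted samples, was under the filter. Its groups overlapped, and the means were 0.803 ± 0.0937 and 0.818 ± 0.0484 FPKM (SD, n = 3, exact two-sided permutation p = 0.8).

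Of the TET dioxygenases, TET2 and TET3 did not pass the test in either direction, and TET1 was not tested. TET2 (ENSG00000168769, 4:105145875-105279816, plus strand) was at 2.20, 1.74 and 1.79 FPKM in the control samples and at 2.43, 1.29 and 2.53 FPKM in the OFD1-depleted samples. OFD1-depleted replicate 2 was the lowest of all 6 samples and the other 2 the highest. The log2 fold change was 0.07 (95% interval −0.52 to 0.66, limma adjusted p = 0.887, exact two-sided permutation p = 0.8), −0.067 with the samples scaled to one total, and 0.37 (adjusted p = 0.196) without OFD1-depleted replicate 2.

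TET3 (ENSG00000187605, 2:73984910-74108176, plus strand) was at 2.87, 1.97 and 2.34 FPKM in the control samples and at 2.72, 1.28 and 2.28 FPKM in the OFD1-depleted samples. The groups overlapped, and the same sample was lowest. The log2 fold change was −0.23 (95% interval −0.84 to 0.38, limma adjusted p = 0.616, exact two-sided permutation p = 0.6), and 0.071 without OFD1-depleted replicate 2. TET1 (ENSG00000138336, 10:68560337-68694487, plus strand), the least expressed gene of the set and under the filter, was at 0.250, 0.399 and 0.312 FPKM in the control and at 0.432, 0.285 and 0.454 FPKM in the OFD1-depleted samples (exact two-sided permutation p = 0.3). Its groups overlapped. The longest transcripts of the set belong to TET3 (12060 bases), TET1 (9612), TET2 (9589) and DNMT3A (9421) by GENCODE 44, all in the length class that was low in OFD1-depleted replicate 2, to which DNMT1 (5274) also belongs. With a trend on transcript length taken out of each sample, an analysis added after the data were seen, the log2 fold changes were −0.14 for DNMT3A (adjusted p = 0.722), 0.30 for TET2 (0.285) and 0.016 for TET3 (0.962), while UHRF1 was at −1.33, HELLS at −1.54, DNMT1 at −0.79 and UHRF2 at −0.46 (0.0526).

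MBD4 (ENSG00000129071, 3:129430947-129440179, minus strand) was at 8.97, 9.28 and 8.34 FPKM in the control samples and at 7.83, 5.56 and 7.02 FPKM in the OFD1-depleted samples. Every OFD1-depleted sample was below every control sample, by a small margin in replicate 1. The log2 fold change of −0.39 (SE 0.155, 95% interval −0.73 to −0.05) gave a limma adjusted p of 0.114 and an exact two-sided permutation p of 0.1, and it passed in 0 of 18 alternative analyses (adjusted p 0.0668 to 0.281).

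The order of the levels changed near the top of the set. From highest to lowest mean, the control samples gave DNMT1, UHRF1, UHRF2, HELLS, MBD4, TET3, TET2, DNMT3A, DNMT3B and TET1, and neighbours overlapped in their sample values at TET3 and TET2 and at TET2 and DNMT3A. In the OFD1-depleted samples UHRF2 stood above UHRF1 and MBD4 above HELLS, with the rest of the order kept. There DNMT1 overlapped UHRF2, HELLS overlapped TET3, TET3 overlapped TET2, and DNMT3A overlapped DNMT3B.

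**Figure D3:**
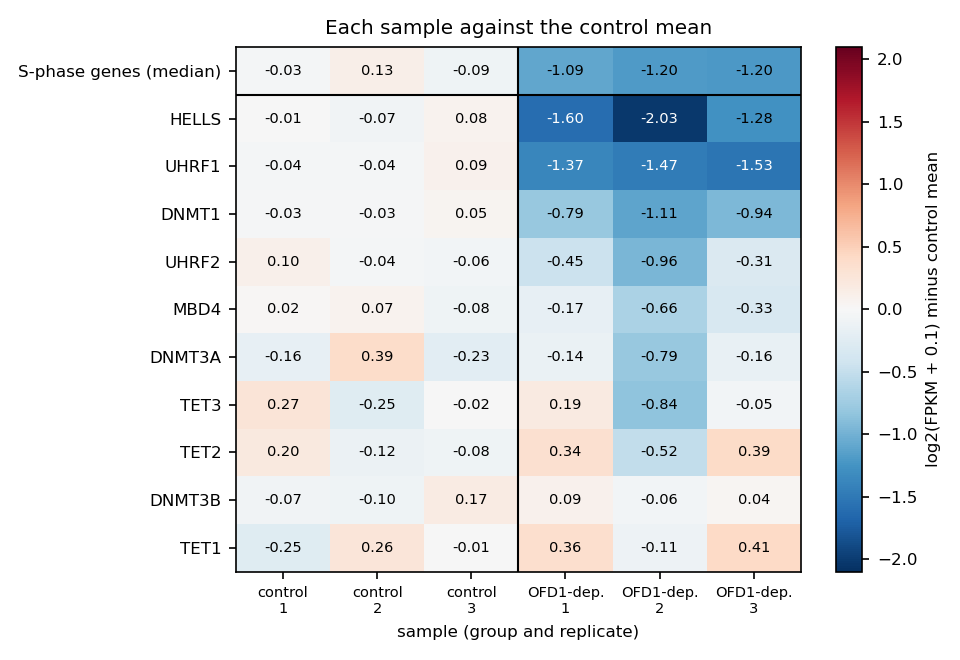
Log2 of FPKM + 0.1 in each sample minus the control mean, for the 10 DNA methylation genes and for the median of 40 S-phase genes outside the set; columns are the 3 control and 3 OFD1-depleted (OFD1-dep.) samples. UHRF1, HELLS and DNMT1 are low in all 3 OFD1-depleted samples, and OFD1-depleted replicate 2 has the lowest value of its group in 9 of the 10 genes. The share of all tested genes lowest in that sample was not counted.

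Levels were also compared within each sample, as 8 ratios between genes or sums of genes. Each value had 0.1 FPKM added first, which makes the ratios nearly but not wholly independent of how a sample was scaled and moves those with low genes most. In 6 of them the groups did not overlap, each with an exact two-sided permutation p of 0.1, which is 0.133 adjusted over the 8, so none could pass at this sample size. All of these except TET3 to TET2 have UHRF1, HELLS or DNMT1 in the numerator, and DNMT1 makes up most of the summed methyltransferases. Their separation therefore follows in part from the falls already called and is not separate evidence. How often ratios between other tested genes separate was not computed. UHRF1 to UHRF2 was 1.12, 1.23 and 1.37 in the control samples and 0.653, 0.869 and 0.533 in the OFD1-depleted samples. UHRF1 was thus above its paralog in every control sample and below it in every OFD1-depleted sample. UHRF1 to DNMT1 was 0.801, 0.800 and 0.830 against 0.545, 0.629 and 0.541, and HELLS to DNMT1 was 0.354, 0.339 and 0.356 against 0.200, 0.185 and 0.278. Both were lower in all OFD1-depleted samples, so the RNA of UHRF1 and of HELLS was reduced relative to that of DNMT1 there.

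DNMT1 to the sum of DNMT3A and DNMT3B was 14.04, 10.9 and 14.2 in the control samples and 7.78, 8.54 and 7.17 in the OFD1-depleted samples. The summed methyltransferases to the summed TET genes were 5.77, 7.59 and 7.29 against 3.40, 5.21 and 3.28, a difference in mean log2 ratio of −0.82. The highest ratio among the OFD1-depleted samples, in replicate 2, came with the lowest DNMT1 and the lowest TET levels of that group. TET3 to TET2 was 1.29, 1.13 and 1.29 against 1.11, 0.987 and 0.907. The groups overlapped for DNMT3A to DNMT3B (difference −0.39, exact permutation p = 0.4) and for TET1 to TET2 (0.15, p = 0.8).

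**Figure D4:**
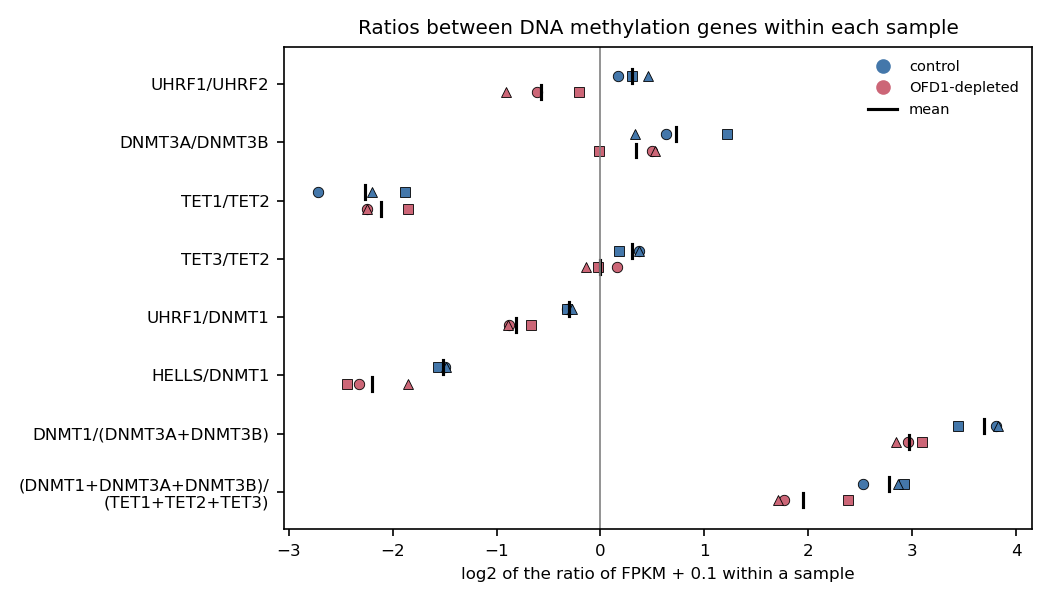
Log2 of the ratio of FPKM + 0.1 within each sample for the 8 ratios; points are samples (circles, squares and triangles for replicates 1, 2 and 3), bars are means. The groups do not overlap in 6 ratios and overlap for DNMT3A to DNMT3B and TET1 to TET2.

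UHRF1 and HELLS are also on the S-phase gene list of the Seurat package, and that list was low as a whole. Of 40 tested S-phase genes outside the set, 36 were called lower and 0 higher, with a median log2 fold change of −1.17, beside −0.03 over all tested genes. The median of these 40 genes against the control mean was −0.03, 0.13 and −0.09 in the control samples and −1.09, −1.20 and −1.20 in the OFD1-depleted samples. UHRF1 in the OFD1-depleted samples was at −1.37, −1.47 and −1.53 and HELLS at −1.60, −2.03 and −1.28, each below that median in every sample. DNMT1, at −0.79, −1.11 and −0.94, and UHRF2, at −0.45, −0.96 and −0.31, were above it. Among the 40 genes, 12 had a more negative log2 fold change than UHRF1, 7 than HELLS, 28 than DNMT1 and 34 than UHRF2. The part of S-phase cell number in the methylation genes was not tested.

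The wider pathway was counted over 6 lists, of which 57 of 60 genes were tested, 15 were called lower and 2 higher, with a median log2 fold change of −0.25. The shares over all tested genes, 11.9% lower and 5.07% higher, are the background for these and the following counts. Without the genes on the Seurat S-phase list, which does not hold LIG1 or PCLAF, 12 of 54 were lower and 2 higher (median −0.21). Among the partners of the methyltransferases and of UHRF1, 5 of 8 tested genes fell, 0 rose and the median was −0.97. CDCA7L, a paralog of the HELLS activator CDCA7, had the largest fall on these lists, with a log2 fold change of −1.83 and a limma adjusted p of 1.9e-05. LIG1, the ligase of Okazaki fragments that recruits UHRF1, was at −1.07 (0.000328) and PCNA, the replication clamp that holds DNMT1, at −0.91 (0.000575). CDCA7 (−1.23) and PCLAF (−1.04), a PCNA-binding factor, were the other 2 that fell, and DNMT3L was at 0 in every sample. Of these partners, CDCA7 and PCNA are also on the Seurat S-phase list, so the falls of the 2 lists are not separate.

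Among writers and readers of histone marks that guide DNA methylation, 5 of 10 genes fell and 0 rose (median −0.55). The methyltransferases of histone H3 lysine NSD2 (−1.07, limma adjusted p = 0.00109), SUV39H1 (−0.99, 0.00431) and NSD1 (−0.88, 0.0110) had the smallest p-values, followed by the heterochromatin protein CBX5 (−0.67) and SETD2 (−0.67). The falls of NSD1, CBX5 and SETD2 were each lost in at least 1 analysis that left out a control sample. Methyl-CpG binding proteins other than MBD4 had 0 of 7 called in either direction (median −0.29), with ZBTB33 at −0.52 (0.0922) and MBD3 at −0.29 (0.178). Of 7 tested CXXC proteins, which bind unmethylated CpG, only KMT2A was called (−0.80, 0.0447), and that call held in 8 of 17 alternatives. CXXC5 (−0.37, 0.0682) and KDM2B (−0.27, 0.305) did not pass.

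Of 13 tested base excision genes, which complete the removal of oxidized cytosine, 2 fell and 2 rose (median −0.03), numbers too small to set the list apart from the background of 11.9% and 5.07%. PARP1, a sensor of strand breaks, was at −0.86 (limma adjusted p = 0.00150) and the uracil glycosylase UNG, an S-phase gene, at −0.89 (0.00424). GADD45A, a stress-induced gene, was at 0.56 (0.0185) and the repair polymerase POLB at 0.49 (0.0411). The rise of GADD45A passed in 14 of 18 alternatives and that of POLB in 10, both keeping their direction in all 18. TDG, the glycosylase that acts on TET products, was at 0.36 (0.116) and did not pass. Among 12 tested genes of methyl donor and 2-oxoglutarate metabolism 2 fell and 0 rose (median −0.14). SHMT1, an enzyme of folate metabolism, was among those that fell (−0.93, 0.00663), while AHCY, which clears the product of methyl transfer, was at 0.33 (0.0871).

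In the coordinates of the table, 13 genes overlap 9 of the 10, and 5 of these 13 were above 0 in any sample. How shared reads were divided is not known, nor whether strand was used in counting. S1PR2, on the strand of DNMT1, was at −0.13 (limma adjusted p = 0.678) and TBC1D12, on the strand of HELLS, at −0.13 (0.670), both far from the change of the gene they overlap. AL138759.1, inside HELLS, was listed at 0, 1.67 and 2.34 FPKM in the control and at 0, 0 and 1.46 FPKM in the OFD1-depleted samples. IFT122 shares 144 bases with MBD4 on the opposite strand and was at −0.11 (0.691), and the pseudogene COX20P1 within TET1 was at 0.32 (0.536).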

How the data were processed

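RNA-seq of 6 samples (3 control, 3 OFD1-depleted) was analysed from 1 table. Per the labels and the study's methods, the authors aligned reads with HISAT2 (2.0.5 in the submitters' processing notes) to GRCh38 and computed the deposited FPKM per gene with StringTie, whose version and strand setting are not given in the sources used here. The library kit differs between the labels and the methods. The table holds no read counts, so count tests were not used and depth was not estimated. FPKM summed to 408302 to 414547 in the control and 433262 to 493510 in the OFD1-depleted samples, and mitochondrially encoded genes held 8.66 to 13.8% and 15.6 to 19.3% of these sums. The 6464 genes on alternative contigs were at 0. No 2 samples were identical.

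Genes averaging 1 FPKM or more were fitted on log2(FPKM + 0.1) with limma 3.58.1 (variance trend) in R 4.3.3, two-sided, with Benjamini-Hochberg adjustment over all 12025. Single genes and ratios were also compared by exact permutation (scipy 1.17.1). Lists are described by counts and medians. The genes, lists and tests were chosen with earlier results of these data known. Named were OFD1, the 10 genes, genes overlapping them, up to 3 genes per list with the smallest p-values, and further list genes that passed, which were named after their values were seen. Promoter windows came from RefSeq (GRCh38.p14) and transcript lengths from GENCODE 44. Protein sequences were not used here, and some genes of the lists are counted but not reported singly here. 18 alternatives were run, 1 of them added after the data were seen.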

Additional observations from a re-analysis of the deposited data

How the results depend on the processing

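UHRF1, HELLS and DNMT1 kept their direction and call under all 18 alternatives, and 3 or 4 of the 10 genes were lower and 0 higher in each, the difference being UHRF2. DNMT3B and TET1 had a value in only 1 alternative, the fit without a filter, and could not be called in the others. Of 158 single-gene values, 143 kept direction and side of the threshold, 10 (all of UHRF2) lost the call and 5 reversed. UHRF2 lost its call without a filter on low values (adjusted p = 0.166), with median-of-ratios scaling (0.0532), scaling without mitochondrially encoded genes (0.0672), quantile normalization (0.0638), no variance trend (0.0738) and the length trend taken out (0.0526), and when 1 of 4 samples was left out; the cause was not tested. The reversed values belong to genes or ratios that were not called: TET2 was at −0.067 with scaling to one total and from −0.090 to 0.37 when 1 sample was left out, TET3 at 0.016 with the length trend taken out and from −0.45 to 0.071 with 1 sample left out, and TET1 to TET2 from −0.078 to 0.34. Scaling to one total shifted the median of all genes by −0.14. A filter at 5 FPKM left no value for OFD1, DNMT3A, TET2 and TET3.

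Over all genes, 2039 passed (1429 lower, 610 higher). Without a filter 1083 passed (823 lower, 260 higher), with array weights 3956 (2263 and 1693), and with the length trend taken out 3070 (1594 higher). The higher count was 268 with scaling to one total and 1093 with quantile normalization. Leaving out 1 sample gave 1138 (without control replicate 3) to 2863 (without OFD1-depleted replicate 2), with 882 to 1766 lower and 252 to 1097 higher. Of 468 list counts 79 moved by over 1.5 times. Deviations from the group mean correlated at 0.058, 0.048 and 0.011 between samples with the same replicate number. Between samples with different numbers the correlations were −0.08 to 0.05. Correlations this weak show no pairing but cannot exclude a shared culture day or batch, which the labels do not give. With the replicate block 1534 genes were lower and 762 higher, the same 4 methylation genes were called and UHRF2 had an adjusted p of 0.0198. Without read counts, how far depth limits the low values of TET1 and DNMT3B is unknown.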

Other observations

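Germline, imprinted and interferon-stimulated genes were listed beside the enzymes. Their expression can change with DNA methylation but also depends on other inputs, so it is not a direct measure of it. Of 25 germline genes whose promoters are methylated in somatic cells, 20 were at 0 in all 6 samples, none reached the filter, and the highest value was 0.0465 FPKM for STK31, a testis kinase, in an OFD1-depleted sample. These genes were therefore not detected above trace level in either group. Of 20 imprinted genes 10 were tested, 0 fell and 2 rose, with a median log2 fold change of 0.01, where 11.9% of all tested genes fell and 5.07% rose. They were SNRPN (0.48, limma adjusted p = 0.0324, past the threshold in 11 of 18 alternatives) and PLAGL1 (0.68, 0.0361, in 10 of 18), while GNAS was at 0.28 (0.171). Of 18 interferon-stimulated genes 10 were tested, 0 fell and 1 rose (median 0.01); counts this small do not set either list apart from those shares. DDX58, the cytosolic RNA sensor RIG-I, was at 0.54 (0.0324, in 10 of 18 alternatives), IRF7 at −0.52 (0.148) and IFIT1 at −0.45 (0.313). The called rises of SNRPN, PLAGL1 and DDX58 were all lost with scaling to one total. Interferon-stimulated genes under the filter moved both ways. OAS3 was at 1.60, 1.74 and 1.10 FPKM in the control and 0.303, 0.650 and 0.442 FPKM in the OFD1-depleted samples. IFI44L was at 0.372, 0.335 and 0.340 FPKM against 1.16, 0.525 and 0.893 FPKM, and OASL at 0 against 0.156, 0.0322 and 0.0437 FPKM. These genes were not tested with limma. DNA methylation itself was not measured in these samples.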
